A study of Arabidopsis thaliana with 9 samples.

Results

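Class I KNOX genes encode homeodomain transcription factors that keep cells of the shoot meristem undifferentiated, and Arabidopsis has 4 of them, STM (AT1G62360), KNAT1 (AT4G08150, also called BREVIPEDICELLUS), KNAT2 (AT1G70510) and KNAT6 (AT1G23380). Leaves form where these genes are shut off. AS1 (AT2G37630), a MYB protein, and AS2 (AT1G65620), a LOB-domain protein, act as a complex that keeps KNAT1, KNAT2 and KNAT6 silent in the leaf, while STM in turn restrains AS1 in the meristem. Leaves that express KNOX genes ectopically become lobed and lose their even shape. These 6 genes were taken by their identifiers, out of 33302 features in the expression table, and all 6 had values.

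The RNA came from leaves of Arabidopsis thaliana (Columbia-0 background) harvested at 21 days, from plants grown in soil at 23 degrees C with 16 h of light and 8 h of dark. Plants of either group had an extra, inserted H3 gene, a copy of HTR5 (AT4G40040), beside their own H3 genes. The copy was unmutated in the group called WT here, so WT is itself a transgenic line and not plain Columbia-0, and it had lysine 36 of H3 replaced by methionine in the group called K36M. Each group had 2 libraries, described as biological replicates. For the RNA samples the labels do not say whether the insertion was heterozygous or homozygous, nor how many insertion lines or plants were used, and an effect of the mutation and one of the insertion cannot be told apart. The study's stated aim for the RNA was to follow transcripts in plants that had lost H3K36 methylation. H3K36me3 chromatin libraries were not analysed here.

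Levels are given in FPKM, a fragment count adjusted for gene length and library size. The depth is not stated, so precision rests on the spread between 2 libraries per group. For the labelled tissue, 5 genes of the leaf blade summed to 36475 to 79665 FPKM in each library. Such sums do not show whether other tissue was included. WT replicate 1 stood apart from the rest: its Pearson correlation across genes with the other libraries was 0.821 to 0.834, against 0.937 to 0.950 among the other 3. Its values were also high for features spanning 3000 to 7000 bp. The median log2 difference from the mean of the others was 0.34 over 5113 such features, against -0.027 over all 17738 tested features. Other spans are not given. HTR5 itself was read at 322 and 711 FPKM for WT against 391 and 582 FPKM for K36M, values in which the transcripts of the inserted and the native gene are not separated. As all 6 members were lowest in WT replicate 1, their results are given with and without that library.

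STM, the gene that maintains the shoot meristem, was listed at 0 FPKM in WT replicate 1 and stood at 9.73 FPKM in WT replicate 2. It stood at 10.6 and 7.89 FPKM in K36M replicates 1 and 2. Only WT replicate 1 was low, and the groups overlapped, since WT replicate 2 lay between the 2 K36M values. On the log2(FPKM + 1) scale the difference between K36M and WT was 1.63 ± 1.05 (SE; 95% interval -0.94 to 4.20; limma adjusted p = 1 over all tested features). All 271 features of the plastid and mitochondrial genomes had 0 in each of the 4 libraries, so a listed 0 need not show absence. STM is not a feature of that kind, since it was read in WT replicate 2 and both K36M libraries. Whether its 0 in WT replicate 1 shows absence was not tested.

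KNAT1, which shapes the stem and pedicel, stood at 0.0354 and 2.69 FPKM for WT against 4.19 and 3.67 FPKM for K36M. Both K36M libraries lay above both WT libraries, and the 2 WT libraries were farther apart from each other than WT replicate 2 was from either K36M library. The difference was 1.33 ± 0.66 on the log2(FPKM + 1) scale (SE; 95% interval -0.28 to 2.95; limma adjusted p = 1).

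KNAT2 and KNAT6 are a closely related pair, and KNAT6 is known for its part in the boundary between the meristem and the organs around it. KNAT2 stood at 0.111 and 0.908 FPKM for WT against 2.12 and 1.77 FPKM for K36M. KNAT6 stood at 0.317 and 1.03 FPKM for WT against 3.64 and 2.39 FPKM for K36M. For both genes the 2 K36M libraries lay above both WT libraries, and the levels were low in all 4. The difference on the log2(FPKM + 1) scale was 1.01 ± 0.50 for KNAT2 (SE; 95% interval -0.20 to 2.22) and 1.28 ± 0.47 for KNAT6 (95% interval 0.12 to 2.44), each with a limma adjusted p of 1. KNAT6 was the single member under 0.05 before adjustment (limma, unadjusted p = 0.035). That scale understates differences of genes as low as these. The features tested were the 17738 with a mean over the 4 libraries of at least 1 FPKM, a filter that all 6 members passed, KNAT2 and KNAT6 with WT means below 1 FPKM. Reads shared between near-identical stretches of this pair could blur their separate values, which was not examined.

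**Figure D1:**
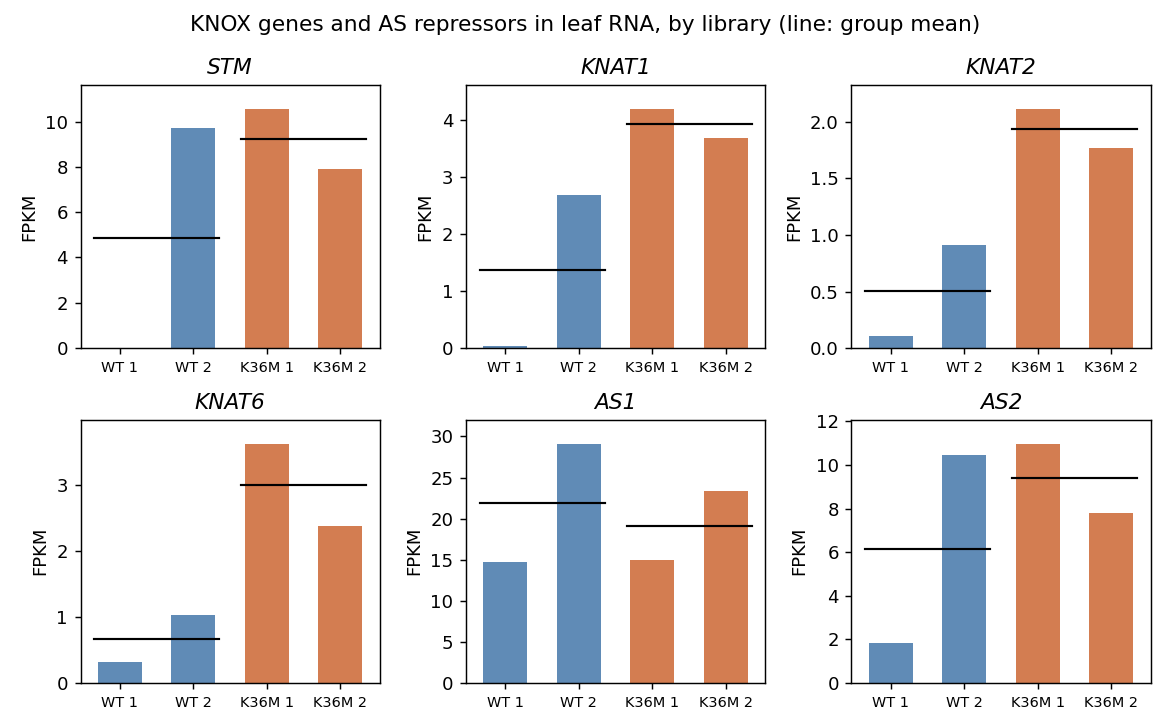
FPKM (vertical axis, from 0, its own scale in each panel) of the 4 KNOX genes and AS1 and AS2 in the 4 libraries (horizontal axis), with WT in blue, K36M in orange and a black line at each group's mean. WT 1 is the lowest bar in every panel, at 0 for STM and 0.0354 FPKM for KNAT1, while KNAT2 and KNAT6 are also lower in WT 2 (0.908 and 1.03 FPKM) than in either K36M library.

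Among the KNOX genes 3 of 4 had both K36M libraries above both WT libraries, where 12.1% of all tested features did. Of these 3, KNAT2 and KNAT6 passed the filter through their K36M values (WT means 0.509 and 0.671 FPKM). None of the 6 members was called by limma at an adjusted p of 0.05, and 1 was under 0.05 unadjusted. Over all tested features 0.0395% were called and 4.12% were under 0.05 unadjusted. The median log2 difference was 1.31 over the 4 KNOX genes and -0.051 over all tested features. Since the tissue was sequenced in bulk, more cells that express a KNOX gene and more of its RNA per cell cannot be told apart, here or for any gene below.

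AS1 was the most abundant of the 6, at 14.7 and 29.1 FPKM for WT against 14.9 and 23.4 FPKM for K36M. The groups overlapped, and the 2 libraries with replicate number 1 were alike, as were those with number 2 to a lesser degree. The difference was -0.15 ± 0.50 (SE; 95% interval -1.37 to 1.08; limma adjusted p = 1). The interval covers more than a 2-fold difference in either direction, so these data do not show that AS1 was the same in both groups.

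AS2 stood at 1.83 and 10.5 FPKM for WT against 11.0 and 7.79 FPKM for K36M. As with STM, only WT replicate 1 was low, and WT replicate 2 lay between the K36M libraries. The difference was 0.85 ± 0.70 (SE; 95% interval -0.85 to 2.55; limma adjusted p = 1).

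The level of the 4 KNOX genes relative to AS1 and AS2 was compared within each library, where the scaling of a library drops out. The sum includes STM, which is not among the 3 genes named above as silenced by AS1 and AS2. STM supplied 0% and 67.8% of the KNOX sum in WT and 51.5% and 50.2% in K36M. The 4 KNOX genes together came to 2.79% and 36.2% of the summed FPKM of AS1 and AS2 in WT and to 79.1% and 50.4% in K36M. Both K36M libraries had a higher ratio than either WT library. On the log2 scale the ratio was -3.31 ± 2.61 in WT and -0.66 ± 0.46 in K36M (SD, n = 2 each), a difference of 2.65 (two-sided exact permutation test, p = 0.333, the smallest that 2 libraries against 2 allow). Without WT replicate 1 the difference was 0.80.

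With WT replicate 1 left out, the order of the members changed. KNAT6 then had the greatest difference, 0.97 ± 0.33 on the log2(FPKM + 1) scale, followed by KNAT2 at 0.62 ± 0.26 and KNAT1 at 0.42 ± 0.32 (SE; limma adjusted p = 0.52, 0.56 and 0.66; the lone WT library is assumed to vary like the K36M pair). The mean K36M level was 2.94 times that of WT replicate 2 for KNAT6, 2.14 times for KNAT2 and 1.46 times for KNAT1. STM and AS2 turned to slightly below 0, at -0.082 ± 0.39 and -0.16 ± 0.40, and AS1 was at -0.61 ± 0.44 (limma adjusted p = 0.94, 0.89 and 0.65). Against WT replicate 2 alone, 30.0% of tested features had both K36M libraries above it, and 3 of the 4 KNOX genes did. Those were KNAT1, KNAT2 and KNAT6, whose K36M libraries lay above both WT libraries and so had to lie above this one. The median over the 4 KNOX genes was 0.52 without WT replicate 1 and -0.12 over all tested features.

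With WT replicate 2 left out instead, STM and KNAT1 were called higher in K36M, at 3.34 ± 0.34 and 2.25 ± 0.28 (SE; limma adjusted p = 0.027 and 0.035), among 702 called features, 3.96% of those tested. The 2 calls thus rest on WT replicate 1 as the lone WT library. The 4 KNOX genes span 3461 to 6394 bp, and the log2 differences of WT replicate 1 from the mean of the other libraries were -3.37 for STM, -2.11 for KNAT1, -1.19 for KNAT2 and -1.27 for KNAT6. WT replicate 1 was the lowest of the 4 libraries for 34.7% of all tested features and for 6 of 6 members.

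**Figure D2:**
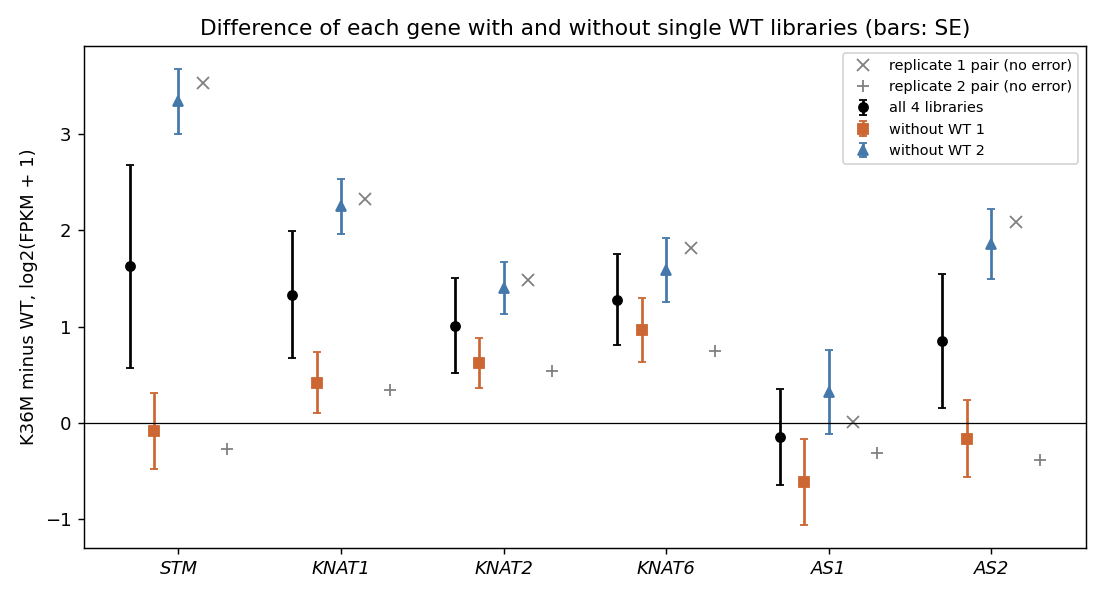
Difference between K36M and WT on the log2(FPKM + 1) scale (vertical axis) for each gene (horizontal axis), fitted with limma on all 4 libraries (black circles), without WT 1 (orange squares) and without WT 2 (blue triangles), with bars of 1 SE; grey crosses and plus signs are the single differences of the replicate 1 and replicate 2 pairs, which have no error. KNAT1, KNAT2 and KNAT6 are above 0 in every fit and pair shown, as they must be where both K36M libraries lie above both WT libraries. STM and AS2 are at -0.082 and -0.16 without WT 1.

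Low values of the 2 libraries numbered 2 stood in ratios of whole numbers, in 86.4% of 2664 genes, against at most 3.69% in any other pair and 2.63% in the pair numbered 1. Values are therefore also given within each number. Within number 2, K36M minus WT was 0.74 for KNAT6, 0.54 for KNAT2 and 0.34 for KNAT1, and it was -0.27 for STM, -0.38 for AS2 and -0.31 for AS1. Within number 1, which holds WT replicate 1, it was 3.53 for STM, 2.33 for KNAT1, 2.08 for AS2, 1.82 for KNAT6, 1.49 for KNAT2 and 0.016 for AS1. KNAT1, KNAT2 and KNAT6 were higher in K36M in both pairs. That sign was fixed beforehand, since both K36M libraries lay above both WT libraries for these genes. STM, AS2 and AS1 differed in sign between the pairs. Each pair holds 1 library per group, so neither can be tested.

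The order of the levels was nearly the same in 3 of the 4 libraries. In WT replicate 2 and both K36M libraries it ran from AS1 at 14.9 to 29.1 FPKM through AS2 and STM, which were within 1 FPKM of each other in each of these libraries and changed places in K36M replicate 2, to KNAT1 at 2.69 to 4.19 FPKM and then KNAT6 and KNAT2. STM supplied 67.8% of the summed KNOX FPKM in WT replicate 2 and 51.5% and 50.2% in K36M, while KNAT6 supplied 7.15% in WT replicate 2 and 17.7% and 15.2% in K36M. In WT replicate 1 the sum of the 4 KNOX genes was 0.463 FPKM, of which KNAT6 made up 68.4%. Over these 3 libraries the ranges of AS2 and STM, of KNAT1 and KNAT6, and of KNAT6 and KNAT2 overlapped, while those of AS1 and AS2 and of STM and KNAT1 did not.

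How alike the members were over the 4 libraries was described by the root mean square difference of their log2(FPKM + 1) values, each centred on its own mean. KNAT2 and KNAT6 were the most alike pair, at 0.18, and KNAT1 and AS2 came next at 0.27. STM and AS1 were the least alike, at 1.30. Over all tested features with a symbol, the nearest to STM were the early nodulin-like genes ENODL13 and ENODL14 (0.19 and 0.21) and CDEF1, which encodes a cutinase (0.20). Nearest to KNAT1 were FLR1, AUR1, which encodes an Aurora kinase of dividing cells, and CYP86A4, a cytochrome P450 of cutin synthesis (0.049, 0.079 and 0.079). Nearest to KNAT2 were UPI, EGL3, a bHLH regulator of trichomes, and CDC20.2 (0.073, 0.074 and 0.080), and nearest to KNAT6 were NUDT4, RLP29 and COBL8 (0.078, 0.085 and 0.097). For AS1 they were LOS2, an enolase, HEME2, an enzyme of tetrapyrrole synthesis, and PnsB2 (0.021, 0.021 and 0.035), and for AS2 they were XTH31, DES1 and GPAT6 (0.067, 0.073 and 0.075). The points of this comparison are 4 libraries, and WT replicate 1 is the lowest of them for each KNOX gene and for AS2.

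None of the 4 class II KNOX genes, relatives that are active in differentiated leaf tissue, had both K36M libraries above WT. KNAT5 stood at 22.9 and 15.7 FPKM for WT against 6.96 and 9.51 FPKM for K36M, and KNAT4 at 39.1 and 29.4 FPKM for WT against 19.8 and 21.8 FPKM for K36M. For both, each K36M library lay below both WT libraries. The differences were -1.13 ± 0.42 and -0.68 ± 0.42 (SE; limma unadjusted p = 0.035 and 0.15; adjusted p = 1 each). KNAT3 and KNAT7 overlapped between the groups. KNATM, which encodes a KNOX protein without a homeodomain, did have both above, at 0 and 1.80 FPKM for WT against 2.12 and 3.17 FPKM for K36M. It passed the filter through its K36M values (WT mean 0.902 FPKM). Of these 5 tested genes, 1 had both K36M libraries above WT and 2 had both below, beside 12.1% and 19.3% of all tested features, and none was called in either direction.

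BELL homeodomain proteins bind KNOX proteins and carry them into the nucleus. Of 13 BELL genes 11 were tested and none was called. None had both K36M libraries above WT and 1 had both below, beside 12.1% and 19.3% of all tested features. That gene was BLR (also PENNYWISE), the partner of STM and KNAT1, at 7.64 and 10.1 FPKM for WT against 7.61 and 6.37 FPKM for K36M. BEL1 stood at 15.3 and 3.03 FPKM for WT against 4.81 and 2.18 FPKM for K36M, BLH3 at 30.9 and 4.79 FPKM and at 9.73 and 9.80 FPKM, and BLH1 at 29.9 and 20.4 FPKM and at 20.8 and 13.9 FPKM. WT replicate 1 was the highest library for 9 of the 11, as it was for 34.0% of all tested features, while it was the lowest for each KNOX gene. Their median log2 difference was -0.15, beside -0.051 over all tested features.

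Besides AS1 and AS2, 13 genes known to keep KNOX genes silent were listed, among them Polycomb components and the TCP factors of the leaf. Of these 11 were tested, and none was called in either direction. In 1 both K36M libraries lay above WT and in 2 both lay below, beside 12.1% and 19.3% of all tested features. HIRA, a histone H3 chaperone that works with AS1 and AS2, stood at 3.25 and 4.13 FPKM for WT against 2.39 and 2.79 FPKM for K36M. SE, which acts in microRNA processing, stood at 12.3 and 16.6 FPKM for WT against 9.53 and 10.5 FPKM for K36M. These 2 were the genes with both K36M libraries below WT, with log2 differences of -0.38 ± 0.40 and -0.47 ± 0.39 (SE; limma adjusted p = 1 each). TCP10 lay above WT at 30.6 and 20.9 FPKM against 18.7 and 19.6 FPKM, while TCP4 stood at 22.7 and 33.2 FPKM for WT against 22.8 and 10.9 FPKM for K36M. The median of the list was -0.30.

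KNOX proteins are known to raise cytokinin through IPT genes and to lower gibberellin by repressing its synthesis gene GA20OX1 and raising the catabolic gene GA2OX2. Of 9 such genes 4 were tested and none was called. Of these 4, 1 had both K36M libraries above WT and 1 had both below, beside 12.1% and 19.3% of all tested features. The gene with both above was GA2OX2, at 6.03 and 4.29 FPKM for WT against 6.40 and 11.6 FPKM for K36M. Its log2 difference was 0.66 ± 0.44 (SE; limma adjusted p = 1). GA20OX1 overlapped between the groups, at 1.12 and 3.93 FPKM for WT against 1.93 and 2.65 FPKM for K36M, as did the synthesis gene GA3OX1, at 3.81 and 36.7 FPKM and at 23.0 and 21.2 FPKM. The gene with both below was IPT3, a cytokinin synthesis gene of the vasculature, at 13.6 and 12.8 FPKM for WT against 6.97 and 5.44 FPKM for K36M. Its log2 difference was -0.98 ± 0.38 (SE; limma unadjusted p = 0.040, adjusted p = 1). Of the genes not tested, GA20OX2 had both K36M libraries above WT and IPT5 had both below, each under 1 FPKM in every library. IPT7, the gene that STM is known to induce, was at most at 0.216 FPKM in every library and was not tested.

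**Figure D3:**
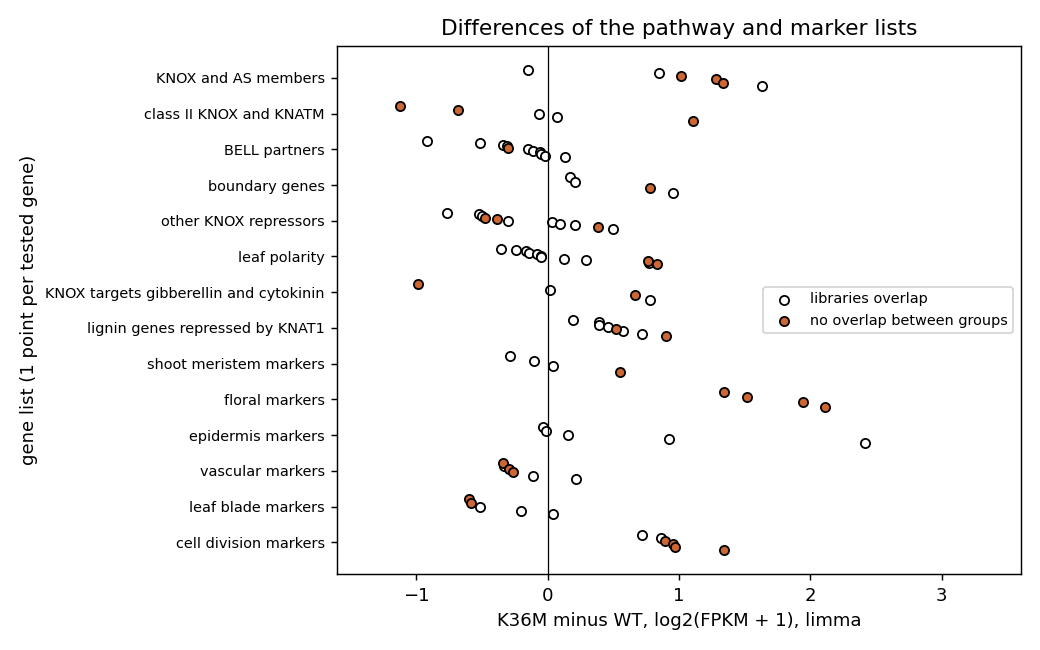
Difference between K36M and WT on the log2(FPKM + 1) scale (horizontal axis) for each tested gene of the members, pathway lists and marker lists (vertical axis), with filled points where the groups' libraries do not overlap. The filled KNOX points are at 1.01, 1.28 and 1.33, the BELL genes lie mostly just below 0, and all 4 floral points are filled and at 1.34 or more.

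Markers of tissues that express KNOX genes were set beside these values. In WT replicate 1 the summed FPKM of 8 boundary genes, which mark the base of lateral organs, was 3.25, against 23.6 in WT replicate 2 and 16.8 and 14.9 in K36M. LOB stood at 0 and 9.12 FPKM for WT against 4.87 and 5.49 FPKM for K36M, and CUC3 at 0.143 and 1.44 FPKM and at 1.96 and 1.78 FPKM. BOP2 stood at 1.91 and 7.05 FPKM and at 4.73 and 4.49 FPKM, and JLO at 0.680 and 3.31 FPKM and at 3.13 and 1.23 FPKM. WT replicate 1 was thus the lowest library for all 4 tested boundary genes, as for the KNOX genes, beside 34.7% of all tested features. CUC3 was the tested boundary gene with both K36M libraries above WT, beside 12.1% of all tested features. It passed the filter through its K36M values (WT mean 0.789 FPKM). Without WT replicate 1 the median log2 difference of the 4 tested boundary genes was -0.51. The 4 boundary genes below the filter, CUC1, CUC2, BOP1 and LAS, ranged from 0 to 1.11 FPKM, and LAS also had both K36M libraries above WT, at 0 and 0.229 FPKM for WT against 0.281 and 0.446 FPKM for K36M.

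Of the genes of the shoot meristem itself, WUS, CLV3 and UFO, which define its centre and flanks, were below the filter, and none of them was at 0 in every library. WUS stood at 0 and 0.114 FPKM for WT against 0.425 and 0.222 FPKM for K36M, and CLV3 at 0.229 and 0 FPKM against 0.472 and 0.733 FPKM. Both thus had the 2 K36M libraries above both WT libraries, at levels under 1 FPKM, and UFO, at most at 0.104 FPKM, did not. The 7 meristem genes summed to 25.3 and 35.8 FPKM in WT and to 28.7 and 33.4 FPKM in K36M. CLV1 stood at 15.1 and 16.6 FPKM for WT against 15.1 and 10.8 FPKM for K36M. It was the highest of them except in K36M replicate 2, where ULT1 was higher. CRN was the only 1 of the 4 tested meristem genes with both K36M libraries above WT, beside 12.1% of all tested features. It stood at 3.76 and 4.98 FPKM for WT against 5.98 and 7.80 FPKM for K36M. For genes below the filter, such as WUS, CLV3, LAS and BLH11, no such share was computed. CLV2 stood at 3.18 and 3.12 FPKM for WT against 3.56 and 2.26 FPKM for K36M, and ULT1 at 3.03 and 10.9 FPKM and at 3.08 and 11.4 FPKM, high in both libraries numbered 2. The part of meristem tissue in the KNOX values was not tested.

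Of the floral and the cell division genes, 4 of 6 in each list had both K36M libraries above WT. The 6 floral genes summed to 1.54 and 2.40 FPKM in WT and to 11.3 and 18.5 FPKM in K36M. AP3, PI, SEP3 and AP1, all 4 tested, had both K36M libraries above WT, as did 12.1% of all tested features, with log2 differences of 1.94 ± 0.45, 2.11 ± 0.52, 1.52 ± 0.52 and 1.34 ± 0.48 (SE; limma adjusted p = 1 for each, unadjusted p = 0.0046, 0.0065, 0.027 and 0.031). These 4 passed the filter through their K36M values, and LFY and AG were below it. The 6 cell division genes summed to 18.8 and 43.8 FPKM in WT and to 53.5 and 76.5 FPKM in K36M, and the 4 with both K36M libraries above WT (beside the same 12.1%) were KNOLLE, CYCB1;1, CYCB1;2 and CYCB1;3. Of these 4, CYCB1;1 passed the filter through its K36M values (WT mean 0.941 FPKM). CDKB1;1 and CDKB2;1 overlapped between the groups. KNOLLE, the syntaxin of the forming cell plate, stood at 7.13 and 10.5 FPKM for WT against 15.5 and 35.3 FPKM for K36M. The part of flower-bearing or dividing tissue in the KNOX values was not tested.

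The epidermis list summed to 177 FPKM in WT replicate 1 and to 722, 613 and 490 FPKM in WT replicate 2 and K36M replicates 1 and 2. Most of the gap lay in PDF1, a gene of the outer cell layer, at 4.81 and 404 FPKM for WT against 313 and 213 FPKM for K36M. Other epidermis genes differed less. CER1 stood at 38.0 and 99.0 FPKM for WT against 141 and 97.3 FPKM for K36M, and ATML1 at 13.5 and 20.1 FPKM and at 17.6 and 19.4 FPKM. WT replicate 1 was the lowest library for 4 of the 5 epidermis genes, beside 34.7% of all tested features. The vascular list summed to 164 and 193 FPKM in WT and to 159 and 148 FPKM in K36M, with 3 of 6 genes, SUC2, APL and ATHB8, lower in both K36M libraries than in either WT library, beside 19.3% of all tested features. Of the 5 leaf blade genes RCA and CA1 were lower in both K36M libraries, beside the same 19.3%. RCA, rubisco activase, stood at 7436 and 14457 FPKM for WT against 6751 and 7075 FPKM for K36M, and CA1, a carbonic anhydrase, at 3165 and 6105 FPKM against 2987 and 2819 FPKM. RBCS1A and GLDP1 overlapped between the groups, RBCS1A at 21083 and 49053 FPKM against 25788 and 30192 FPKM and GLDP1 at 549 and 1103 FPKM against 755 and 395 FPKM. The median log2 difference of the leaf blade list was -0.51, and it was -1.01 without WT replicate 1, where that of the KNOX genes was 0.52. The part of blade tissue in the KNOX values was not tested. None of the epidermis, vascular, leaf blade, floral, cell division, meristem or boundary genes was called in either direction (limma, adjusted p of 0.05).

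**Figure D4:**
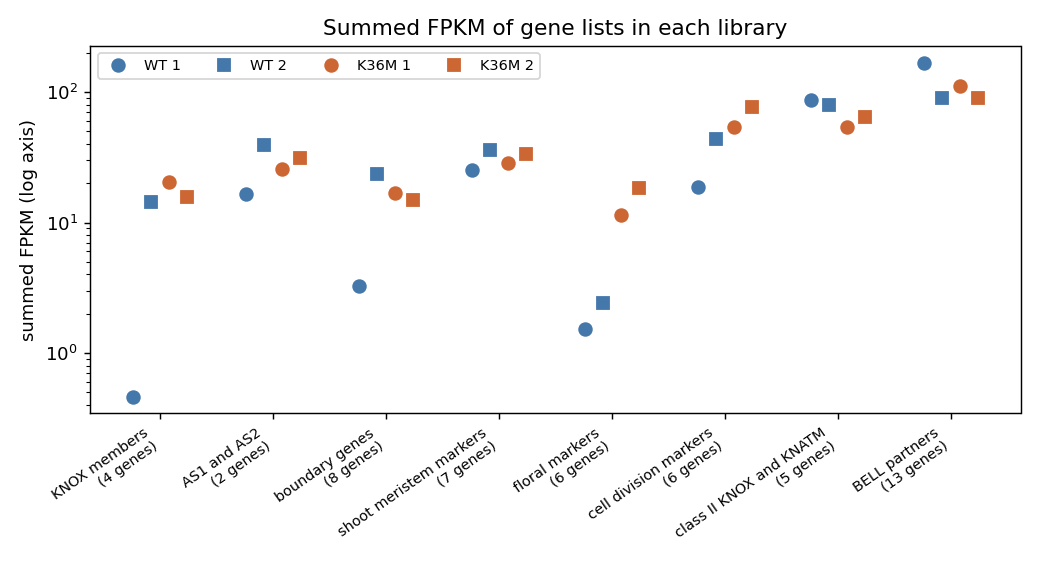
Summed FPKM (vertical axis, log scale) of 8 gene lists (horizontal axis, with the number of genes) in each library, WT in blue and K36M in orange, replicate 1 as circles and replicate 2 as squares. WT 1 is the lowest library for the KNOX genes (0.463 FPKM) and the boundary genes (3.25 FPKM), and the highest for the BELL genes (168 FPKM); the floral sums of both K36M libraries (11.3 and 18.5 FPKM) lie above both WT sums.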

How the data were processed

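The authors deposited FPKM per gene in 1 table without a header, whose condition and replicate codes are quoted in the labels. The unit is named in the labels. Libraries were built from the RNA with a stranded mRNA kit, per the labels' protocols. TAIR10, Bowtie2 and bedtools are named without roles in the submitters' processing notes. Which program computed the FPKM, and with what strand setting, is not given in the sources used here.

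From the FPKM, log2(FPKM + 1) was taken for 17738 features whose mean reached 1 FPKM. K36M was set against WT with limma 3.58.1 (R 4.3.3; trended, two-sided, Benjamini-Hochberg over all tested features, threshold 0.05). FPKM are not counts, so no count model was run. Symbols and gene spans came from RefSeq TAIR10.1, where all 109 entries of the gene lists matched. Its build is not that of the table, so coordinates were left out, and no sequences are shown. Intervals are 95% intervals of the limma fit.

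The members and gene lists were chosen with earlier results of these data known. The naming rule took the 6 members, up to 4 tested genes per list (first called, then not overlapping between groups, then by size of difference) and the 3 features nearest to each member. KNAT3, BLH11, IPT5, IPT7, GA20OX2, CUC1, CUC2, BOP1, LAS, WUS, CLV3, UFO, LFY, AG, CDKB1;1 and CDKB2;1 were named after their values were seen.

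In 86.4% of 2664 genes under 1 FPKM in both libraries numbered 2, the values divided to a quotient of integers no larger than 12, up to 1 common factor (tolerance 0.0005 in natural log units), against 2.63% to 3.69% for other pairs. The alternatives changed the pseudocount, the filter, the scaling, the trend and robustness settings of limma, the replicate number as a block, removal of the gene span trend by loess, and each library left out. The count of KNOX genes above WT was put through them by a choice made after seeing the data. The fit was tested on simulated data. Python 3.11.15, pandas 2.3.3 and matplotlib 3.10.9 were used for tables and plots.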

Additional observations from a re-analysis of the deposited data

How the results depend on the processing

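No KNOX gene turned below 0 under the other pseudocounts, scalings or gene span correction. The filters, limma settings and block could not change a log2 difference, as both groups had 2 libraries. A pseudocount could not change its sign for KNAT1, KNAT2 or KNAT6, whose libraries did not overlap between the groups. With no library left out, log2 differences ranged from 0.72 to 3.22 for STM, 0.52 to 2.71 for KNAT1, 0.34 to 2.14 for KNAT2 and 0.50 to 2.15 for KNAT6, the lowest with a pseudocount of 5 FPKM and the highest with 0.1 FPKM. Their median moved from 1.31 to 2.43 with a pseudocount of 0.1. A mean filter of 5 FPKM left out KNAT1, KNAT2 and KNAT6. AS1 stayed between -0.15 and -0.046 and AS2 between 0.48 and 1.05.

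Leaving out single libraries changed signs. Over the left-out libraries STM ranged from -0.082 (without WT replicate 1) to 3.34 (without WT replicate 2), AS2 from -0.16 to 1.86 and AS1 from -0.61 to 0.32 (without the same libraries in each case), and AS1 was at 0.16 without K36M replicate 1. Within replicate 1 AS1 was at 0.016, and within replicate 2 STM was at -0.27 and AS2 at -0.38. The cause was not tested. Members called ranged from 0 to 2 over the left-out libraries, the KNOX median from 0.52 to 1.92 and the log2 ratio of KNOX to AS1 and AS2 from 0.80 to 4.50. The count of KNOX genes above WT was 3 or 4 in each alternative run for it, but leaving out a library could only keep or raise this count. It was 4 without WT replicate 2, without K36M replicate 2 and when libraries were scaled to the same FPKM sum without AT2G01021, a feature that held 1.39% to 34.6% of a library's sum.

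Features called over all genes numbered 7, with 0 to 702 over the left-out libraries. With the replicate number as a block 0 were called (limma, 794 under 0.05 unadjusted), with a pseudocount of 5 FPKM 0 (673) and with no filter 0 (1175), where more features were tested. With the gene span trend removed and the replicate block together 28 were called. No member was called under any of these. The labels do not say that a replicate number marks shared plants or days, and deviations of same-numbered libraries correlated at 0.13, from 2 pairs. The depth is not stated, and no counting error was computed for the low KNOX values. Within replicate number 2 the fold of K36M over WT was 1.946 for KNAT2, WUS and LAS alike. How few fragments lay behind such low values was not tested.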

Other observations

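Leaf polarity genes, which act with AS1 and AS2 in giving the leaf its upper and lower face, were mixed. Of 12 tested, none was called by limma (adjusted p of 0.05, and none under 0.05 unadjusted), 2 had both K36M libraries above WT and none both below, beside 12.1% and 19.3% of all tested features. YAB5 stood at 15.2 and 11.1 FPKM for WT against 24.6 and 23.2 FPKM for K36M, a log2 difference of 0.83 ± 0.40 (SE; limma adjusted p = 1) that was 1.01 within replicate number 2 and 0.66 within number 1. YAB2 stood at 4.58 and 14.0 FPKM for WT against 14.3 and 14.8 FPKM for K36M, so that WT replicate 1 alone was low, and FIL at 6.65 and 37.0 FPKM and at 25.3 and 31.1 FPKM. ARF4, a target of the AS1 and AS2 complex, stood at 5.92 and 10.7 FPKM for WT against 6.43 and 5.69 FPKM for K36M.

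Lignin pathway genes, which KNAT1 is known to hold down in the stem, were set beside the KNAT1 values. All 8 were tested and none was called by limma (none under 0.05 unadjusted). Each was lowest in WT replicate 1, as were 34.7% of all tested features. COMT1, an enzyme of lignin monomer methylation, stood at 59.2 and 116 FPKM for WT against 143 and 170 FPKM for K36M, and CCOAOMT1 at 289 and 335 FPKM and at 432 and 460 FPKM. Those were the 2 genes with both K36M libraries above WT, beside 12.1% of all tested features. The median log2 difference of the 8 was 0.49 with all libraries and -0.22 without WT replicate 1, beside -0.051 and -0.12 over all tested features.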
